A study of Mus musculus with 12 samples.

Results

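Regulatory T cells (Treg) that had entered an MC38 tumour without expressing the interleukin-10 reporter were compared with Treg of the spleen. The members are the 6 arrays whose titles name IL10- tumour Treg of VERT-X mice (3 arrays) or spleen Treg of FoxP3-EGFP mice (3 arrays), out of 12 arrays in the series. The other 6 hold IL10+ tumour Treg of VERT-X mice and total tumour Treg of FoxP3-EGFP mice, 3 of each. The comparison asked which tumour-associated levels are present in Treg sorted as negative for the Il10 reporter.

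MC38 is a mouse colon carcinoma line, grown here under the skin of C57BL/6 mice of either reporter strain. VERT-X mice report Il10 expression through EGFP, and FoxP3-EGFP mice report Foxp3. Tumours were pooled after 2 weeks and digested, whereas the spleens came from FoxP3-EGFP mice without tumours. Both groups were sorted as CD45+, CD11b-low, CD3+ and CD4+ cells. From there the VERT-X cells were gated on CD25 and CD120b, the products of Il2ra and Tnfrsf1b, and taken as EGFP-negative, while the spleen cells were gated on EGFP, that is, on Foxp3. The groups thus differ in tissue, tumour status, strain and gate at once. The labels name 3 experiments per population, and p-values measure the spread between these samples only.

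Treg are CD4 T cells that restrain other immune cells, and the transcription factor Foxp3 defines them. In lymphoid organs many Treg are in a resting state, kept by factors such as Tcf7, Lef1 and Bach2 and by receptors that guide them through blood and lymph. In inflamed tissue and tumours Treg are known to take on an effector state with the factors Prdm1 and Batf, co-stimulatory receptors of the TNF receptor family, the chemokine receptor Ccr8 and secreted or surface mediators of suppression.

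Levels are log2 of the processed signal over the array's own 75th percentile, so 0 is the signal at that percentile, and a difference of 1 is a doubling. A gene is said to rise or fall when limma's test across 15517 features gave an adjusted p under 0.05.

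On the 6 arrays 46.0% to 65.2% of probes lay well above background, the lowest on spleen replicate 2 and the highest on IL10- replicate 1. Correlations across genes were 0.957 to 0.977 among the IL10- arrays, 0.964 to 0.982 among the spleen arrays and 0.799 to 0.855 between the groups. All 3 IL10- arrays lay on 1 slide and all 3 spleen arrays on another, scanned on different days. Slide, day, strain, gate and tumour therefore cannot be told apart in a direct comparison.

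Before any result, 2 arrays have to be named, because each stands apart from its group. Spleen replicate 2 lacked much of the Treg signature. Ctla4, the inhibitory receptor that Treg carry at high density, read 3.12, -0.89 and 3.29 on spleen arrays 1 to 3. Il2ra, the CD25 chain, read 0.72, -3.90 and 1.27, and Ikzf2 (Helios, a transcription factor of thymic Treg) read 3.12, -1.23 and 3.27. Over the 18 measured Treg identity genes the median of spleen replicate 2 minus the other spleen arrays was -2.76, against 0.07 over all features. The same median was 0.31 for T cell markers, -0.95 for cell cycle genes, 2.38 for fibroblast markers and 1.33 for markers of CD8 T and NK cells.

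IL10- replicate 1 was the other array. Cd3e, the signalling chain of the T cell receptor complex, read 2.08, 5.68 and 5.48 on IL10- arrays 1 to 3, and Cd4 read 0.25, 2.82 and 2.16. On this array fibroblast markers had a median 1.39 above the other IL10- arrays, and interferon-stimulated genes had a median of -0.85 relative to them. IL10+ replicate 1 was low for the interferon-stimulated list too, whose median level was 1.41, 2.15 and 1.81 on IL10+ arrays 1 to 3. For many results the value without the 2 arrays that stand apart is given as well, and for named genes where the call changes. The arrays of the groups did not overlap for any gene printed below with array values and a rise or fall. Further differences are given without an error, and the median standard error over all features was 0.28.

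The genes behind the sorts were read first. Il10 (probe at mm8, chromosome 1, 132851912 to 132851971) read -0.39, 0.48 and 0.07 in IL10- tumour Treg and 0.84, -3.61 and 0.69 in spleen Treg. The groups overlapped, and the difference of 0.75 ± 1.01 (SE, adjusted p = 0.565) did not pass the threshold. The low value is that of spleen replicate 2, and without it the difference was -0.72. On the IL10+ arrays Il10 read 3.71, 5.47 and 4.87, so each IL10- array lay below each IL10+ array, as the reporter gate asks. Still, the IL10- readings lay near the array's 75th percentile and near those of spleen replicates 1 and 3, so Il10 signal was present in them.

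Tnfrsf1b, the CD120b receptor for tumour necrosis factor, read 3.68, 4.33 and 4.19 in tumour and 2.67, 0.64 and 2.52 in spleen, without overlap. It rose by 2.12 ± 0.50 (SE, adjusted p = 0.00597). Il2ra read 0.87, 1.94 and 2.08 in tumour, and its difference of 2.27 ± 1.12 (SE, adjusted p = 0.118) did not pass. Both genes were part of the gate of the VERT-X cells and not of the spleen cells, and the part of the gate in these differences was not tested. Without spleen replicate 2 the differences were 1.47 for Tnfrsf1b (adjusted p = 0.00717) and 0.63 for Il2ra (adjusted p = 0.329).

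Foxp3 (probe at mm8, chromosome X, 6751991 to 6752050) read 3.03, 4.50 and 4.65 in IL10- tumour Treg and -6.09, -5.78 and -6.33 in spleen Treg. Its probe was not well above background on any spleen array, although these cells were gated on the Foxp3 reporter, and it was at least 277-fold higher in IL10- tumour Treg. The bound sets the group mean against the lowest signal read as well above background. Total tumour Treg, of the same FoxP3-EGFP strain as the spleen, read -6.39, -6.53 and -6.17, also not above background, while IL10+ Treg of VERT-X mice read 2.64, 4.47 and 4.11. The probe thus followed the strain in these 12 arrays, and tumour and strain cannot be told apart for it in the comparison with spleen. Gdpd3, a phosphodiesterase of lysophospholipids (probe at mm8, chromosome 7, 126562154 to 126562327), followed the strain the other way. It read -2.71, -3.59 and -3.03 in IL10- and 5.04, 6.0 and 4.99 in spleen Treg, with 5.35, 4.45 and 4.94 in total and -2.55, -2.47 and -2.55 in IL10+ tumour Treg.

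**Figure D1:**
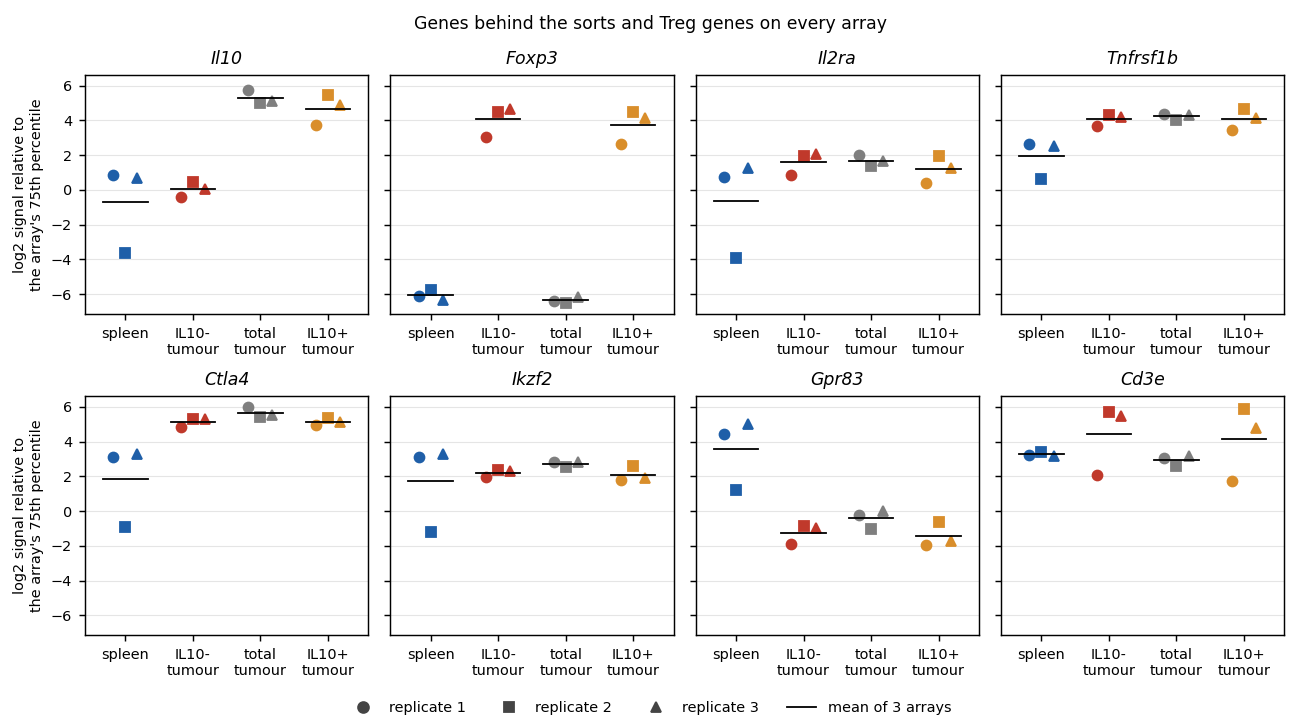
Level (log2 signal over the array's 75th percentile, vertical axis) by group (horizontal axis) of Il10, Foxp3, Il2ra and Tnfrsf1b on each of the 12 arrays and, in the lower row, of the Treg genes Ctla4, Ikzf2 and Gpr83 and the T cell gene Cd3e. Symbols give the replicate number and bars the mean of 3 arrays. Spleen replicate 2 lies apart from the other spleen arrays for Il10, Il2ra, Ctla4 and Ikzf2, IL10- replicate 1 is low for Cd3e, and Foxp3 is low on the 6 arrays of FoxP3-EGFP mice.

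Across the array 7608 of 15517 features differed between IL10- tumour and spleen Treg, which is 49.0% of those tested. Of these, 3777 rose (24.3%) and 3831 fell (24.7%), and 4999 of them (32.2%) changed by at least 2-fold. The levels of the groups did not overlap for 9531 features (61.4%). The median difference over all features was 0.001 and 8618 features had an unadjusted p under 0.05. Scaling to the array median in place of the 75th percentile moved the median difference to -0.45 and the calls to 1954 rises and 4162 falls. Without spleen replicate 2 there were 6626 calls, and without both arrays that stand apart 6066. With slide as a fixed block, which here joins the groups only through single arrays of other groups, 1202 were called, 1169 of them among the 7608.

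**Figure D2:**
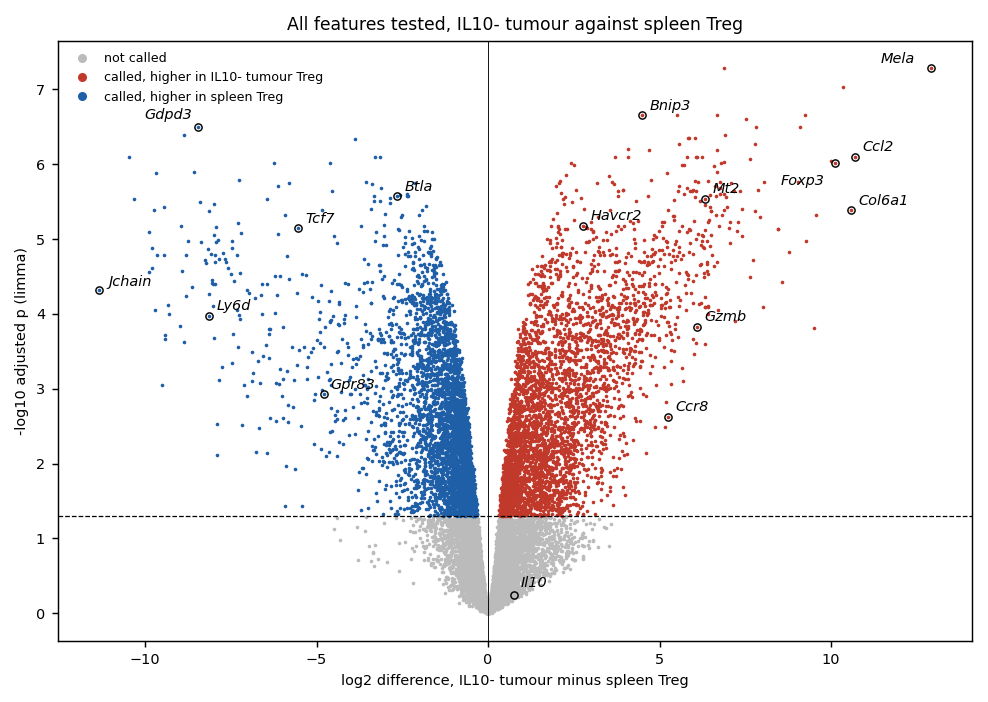
Difference between IL10- tumour and spleen Treg (log2, horizontal axis) against -log10 of limma's adjusted p (vertical axis) for the 15517 features tested. The dashed line marks an adjusted p of 0.05, above which 3777 features are higher in tumour (red) and 3831 higher in spleen (blue). Labelled genes are described in the text.

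Most of the largest rises were of genes that are not known as Treg genes. Mela, a melanoma antigen gene derived from an endogenous retrovirus, read 7.89, 7.0 and 7.27 in tumour and -6.07, -5.04 and -5.46 in spleen. It was not well above background in spleen and was at least 2779-fold higher in IL10- tumour Treg. Among the 15 largest rises were the monocyte-attracting chemokines Ccl2 (at least 561-fold) and Ccl7 (at least 223-fold). Also among them were the collagen chains Col3a1, Col5a3, Col6a1, Col6a2 and Col6a3, the matrix proteoglycan Dcn, the secreted protease Htra1, the collagen chaperone Fkbp10 and the matrix protein Ccn1. Dcn read 6.71, 5.30 and 5.49 in tumour and -4.99, -2.13 and -4.08 in spleen. The myeloid receptor Trem2 (at least 136-fold) and the macrophage growth factor Il34 (at least 115-fold) completed the 15 with Foxp3. These 15 were ranked among called genes without overlap between the groups, leaving out predicted genes, clones and immunoglobulin and T cell receptor segments. Their lack of overlap is thus not a result, and it held for 7516 of the 7608 called features.

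The 15 largest falls, ranked by the same rule, were mostly of genes of B cells, plasma cells and red cells. Immunoglobulin segments were left out of this ranking, and 34 of 36 measured ones fell, with a median of -7.46. Jchain, which joins the units of secreted IgM and IgA, read -6.79, -6.13 and -5.19 in tumour and 6.70, 4.84 and 4.37 in spleen, and was at least 780.1-fold lower. The IgM receptor Fcmr fell by 10.46. The B cell genes Ly6d, Fcer2a, Cd79a, Ms4a1 and Spib and the plasma cell gene Mzb1 were among the 15, as was Apol7c, with falls of 6.60 (Spib) to 8.14 (Ly6d) where both groups were above background. Eraf, the haemoglobin chaperone now named Ahsp, was at least 116-fold lower. The haem synthesis enzyme Alas2 fell by 7.11 and Slc4a1, the anion exchanger of red cells, by 7.02. Of the 15, Dapl1 belongs to resting T cells and Gdpd3 followed the strain. In sorted bulk samples, fewer cells of a type and less RNA per cell cannot be told apart.

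Several genes have more than 1 probe, and the brightest is used throughout. Where others gave another call, this is said beside the gene or here. A further probe did not pass for Dcn (1.36), Col6a3 (1.37), Calca (0.44), Tnfrsf10b (0.61), Cdc6 (0.58), Stard4 (0.31), Sh2d1a (-1.73), Fas (-0.61) and Cd8b1 (-0.43). The same held for Cycs (0.01 and -0.16), Ndufb8 (-0.44), Stat3 (0.50), Stat6 (0.90) and Ifngr2 (-0.37). For Cd3e a second probe was called lower in tumour (-1.67), against 1.14 for the one used.

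Treg identity genes were higher in the tumour fraction only in part, and the count depended on single arrays. Of 18 measured members, 9 rose and 1 fell, where 24.3% of all features rose and 24.7% fell. Foxp3, whose probe followed the strain, is 1 of the 9. The median difference was 1.92, against 0.001 over all features. Ctla4 read 4.84, 5.29 and 5.27 in tumour and 3.12, -0.89 and 3.29 in spleen, without overlap, and rose by 3.30 ± 0.89 (SE, adjusted p = 0.0116). Tnfrsf18 (GITR, a co-stimulatory receptor) read 7.81, 8.23 and 7.96 against 6.79, 4.72 and 6.75 and rose by 1.91 ± 0.49 (SE, adjusted p = 0.00939). Spleen replicate 2 was the lowest array for both. Entpd1 (CD39, which breaks down extracellular ATP) rose by 1.97 ± 0.55 (SE, adjusted p = 0.0142). Gpr83, a receptor known from Treg, read -1.88, -0.86 and -0.98 in tumour and 4.44, 1.23 and 5.0 in spleen and fell by 4.80 ± 0.85 (SE, adjusted p = 0.00118), or 5.96 without spleen replicate 2.

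Members that did not pass included Ikzf2 (0.48), Nrp1 (0.79), a marker of thymic Treg, and Izumo1r (-0.70), the folate receptor FR4. In the fit that left out spleen replicate 2, 7 rose and 3 fell and the median was 0.89. Then Ctla4 differed by 1.93 (adjusted p = 2.68e-04), Tnfrsf18 by 1.23 (adjusted p = 0.00692) and Ikzf2 by -0.99 (adjusted p = 0.011). Without IL10- replicate 2 or 3, 4 and 5 members rose, and Entpd1 lost its call without IL10- replicate 2.

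Effector Treg genes were higher in IL10- tumour Treg with or without that array, but not past the threshold with slide as a fixed block. Of 22 measured members, 13 rose and 0 fell, with a median of 1.84, where 24.3% of all features rose. Leaving out spleen replicate 2 gave 15 rises and a median of 1.30. Bhlhe40, a transcription factor of activated T cells, read 4.94, 5.5 and 5.21 in tumour and 1.82, 1.0 and 1.58 in spleen. It rose by 3.75 ± 0.30 (SE, adjusted p = 2.03e-05), and spleen replicate 2 lay near the other spleen arrays. Rora, a nuclear receptor of tissue Treg, read 3.96, 4.18 and 4.0 against 1.56, 0.70 and 1.64 and rose by 2.74 ± 0.26 (SE, adjusted p = 3.33e-05). Nfil3, a basic leucine zipper factor, rose by 3.28, and the adhesion receptor Cd44, a mark of activated T cells, rose by 1.59.

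The chemokine receptor Ccr8, which marks tumour Treg, read 2.15, 4.51 and 4.07 in tumour and -0.39, -4.08 and -0.58 in spleen and rose by 5.26 ± 1.05 (SE, adjusted p = 0.00236). Spleen replicate 2 was again the lowest array, and without it the difference was 4.06. Several factors of the effector state did not pass. These were Batf (-0.20), Irf4 (-0.07), Maf (0.86), Gata3 (0.61) and Tbx21 (0.73). Of Maf's other probes, those at 2.72 and 1.85 were called higher, and Tbx21 was called without both arrays that stand apart (1.75, adjusted p = 0.0155). Klrg1, a receptor of terminally differentiated effector cells, read 3.96, 4.88 and 4.57 in tumour and 3.25, -3.37 and 3.22 in spleen. Its groups did not overlap, but the difference of 3.44 ± 1.44 (SE, adjusted p = 0.072) did not pass. Without that array it was 1.23 (adjusted p = 0.032). Il1rl1, the interleukin-33 receptor ST2, differed by 3.24 over all 6 arrays and 1.29 without it (adjusted p = 0.00479), and its other probes, at 4.29 and 3.66, were called higher. With slide as a fixed block no member was called and the list's median was 1.78. Bhlhe40, Rora, Nfil3, Cd44 and Ccr8 then differed by 2.72, 2.11, 2.60, 1.74 and 2.56 (adjusted p from 0.0636 to 0.552).

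Suppressive mediators rose in part in these IL10- cells. Of 17 measured members, 9 rose and 0 fell, with a median of 2.05 (1.68 without spleen replicate 2, where 10 rose). The share called was near the 49.0% of all features, of which 24.3% rose. Gzmb, the protease granzyme B, read 6.48, 7.32 and 7.19 in tumour and 2.09, -1.31 and 1.92 in spleen and rose by 6.10 ± 0.76 (SE, adjusted p = 1.48e-04). Havcr2 (TIM-3, an inhibitory receptor) read 0.79, 1.30 and 1.39 against -1.43, -1.83 and -1.58 and rose by 2.77 ± 0.20 (SE, adjusted p = 6.64e-06). The galectin Lgals3 rose by 2.67 and Itgav, the integrin chain that takes part in the activation of latent TGF-beta, by 2.37. Areg, the growth factor amphiregulin that Treg release during tissue repair, read 1.75, 3.05 and 2.87 in tumour and -1.30, -5.78 and -0.74 in spleen and rose by 5.16 ± 1.08 (SE, adjusted p = 0.00321). Without spleen replicate 2, Gzmb differed by 5.0 and Areg by 3.57, both still called (adjusted p = 1.48e-05 and 4.73e-04). Among those that did not pass were Tgfb1 (1.79), Prf1 (0.29), which encodes perforin, and Lag3 (1.43), an inhibitory receptor for MHC class II. Without IL10- replicate 1, Tgfb1 (2.50, adjusted p = 0.0101) and Lag3 (2.06, adjusted p = 0.0363) were called. Prf1 was called without both arrays that stand apart (1.39, adjusted p = 0.0302). With slide as a fixed block 2 members rose. Lgals3 and Itgav are also expressed by macrophages and fibroblasts, whose markers moved the same way, and the part of those cells was not tested.

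**Figure D3:**
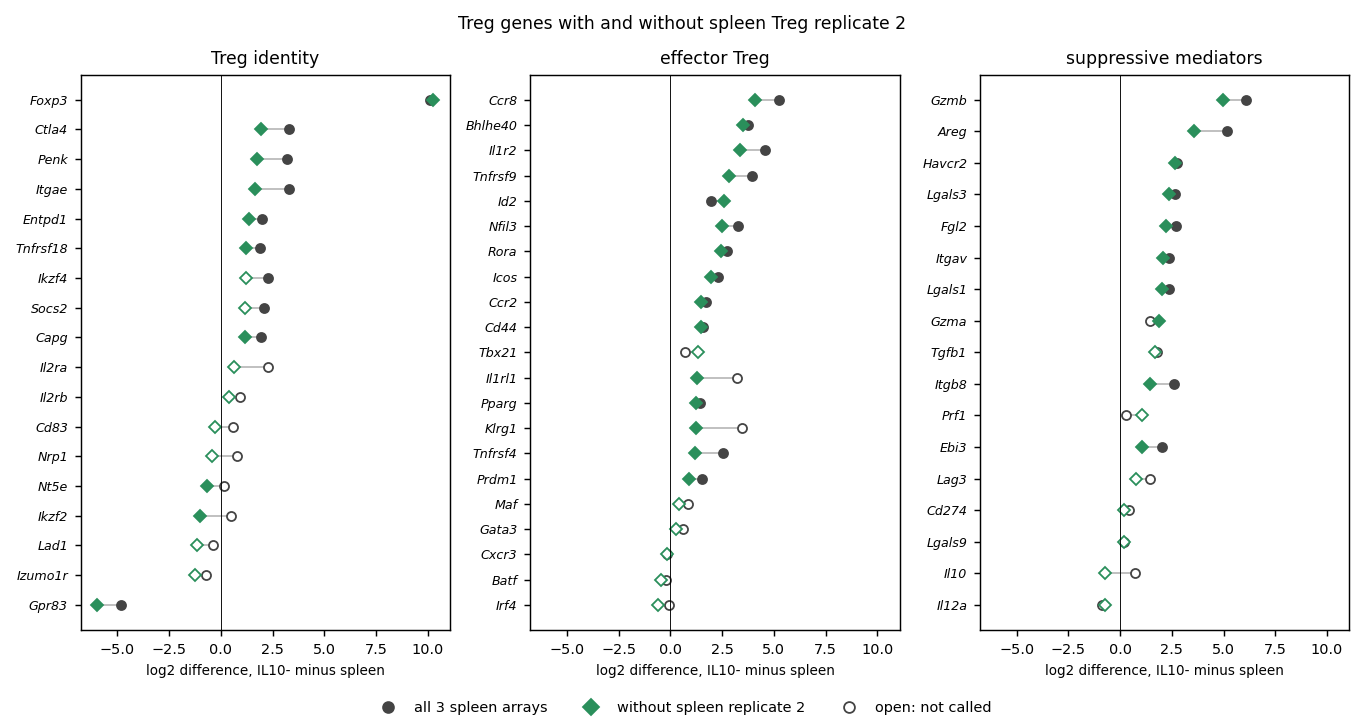
Difference between IL10- tumour and spleen Treg (log2) on the horizontal axis for measured members of the Treg identity, effector Treg and suppressive mediator lists, with all 3 spleen arrays (circles) and without spleen replicate 2 (diamonds). Filled symbols are called and open ones are not. Il10, Il2ra, Klrg1 and Il1rl1 are among the genes whose symbols lie farthest apart.

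Genes of resting lymphoid T cells were lower in IL10- tumour Treg. Of 23 measured members, 18 fell and 1 rose, with a median of -1.89, where 24.7% of all features fell and 24.3% rose. Tcf7 (TCF-1, a factor of naive and memory T cells) read -1.02, -0.92 and -1.07 in tumour and 4.01, 5.62 and 3.97 in spleen and fell by 5.54 ± 0.40 (SE, adjusted p = 7.18e-06). Bach2, a repressor that holds T cells in a quiescent state, read -3.55, -2.78 and -1.98 against 2.11, 2.82 and 2.71 and fell by 5.32 ± 0.50 (SE, adjusted p = 3.04e-05). Each tumour array lay below each spleen array for both. Cxcr5, the receptor for entry into B cell follicles, read -1.36, -1.53 and -1.26 in tumour and 3.49, 2.29 and 3.27 in spleen and fell by 4.40 ± 0.35 (SE, adjusted p = 1.14e-05). The survival factor Bcl2 fell by 3.1, and Dapl1 fell by 6.39. Ly6c1 rose by 0.75, but its other probe was called lower (-1.73), and with all probes of the gene averaged its difference turned to -0.49. Ccr7, the receptor for entry into lymph nodes, did not differ past the threshold. It read 4.99, 4.89 and 4.52 in tumour and 4.04, 5.57 and 4.59 in spleen, a difference of 0.07 ± 0.37 (SE, adjusted p = 0.896). In total and IL10+ tumour Treg it read 3.71, 3.67 and 2.80 and 2.81, 2.58 and 2.48. Without spleen replicate 2, 18 members fell and 2 rose. All 14 measured B cell markers fell on the same arrays. The part of B cells in the falls of this list and of the receptor lists below was not tested.

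Inhibitory and CD28 family receptors moved in both directions. Of 17 measured members, 4 rose and 5 fell, a share called near the 49.0% of all features. Pdcd1 (PD-1) read 5.02, 5.15 and 5.03 in tumour and 3.69, 1.62 and 3.58 in spleen and rose by 2.11 ± 0.45 (SE, adjusted p = 0.00361), or 1.44 without spleen replicate 2, and the co-stimulatory receptor Icos rose by 2.30. Btla, an inhibitory receptor that binds the TNF receptor family member HVEM, read -1.02, -1.26 and -1.30 against 1.35, 1.63 and 1.40 and fell by 2.66 ± 0.16 (SE, adjusted p = 2.66e-06). The SLAM family receptor Slamf6 fell by 2.43, Cd96, a receptor for nectins, by 2.45 and Cd160 by 3.39. The list's median of 0.44 was 0.12 without spleen replicate 2 and turned to -0.02 with the array median as the scale.

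The TNF receptor superfamily was divided too. Of 17 measured members, 8 rose and 5 fell, where 24.3% of all features rose and 24.7% fell. The falls were thus near the share of all features. Tnfrsf9 (CD137, a co-stimulatory receptor of activated T cells) read 5.65, 5.93 and 5.80 in tumour and 3.11, -0.34 and 2.85 in spleen and rose by 3.92 ± 0.73 (SE, adjusted p = 0.00168), or 2.82 without spleen replicate 2. The TRAIL receptor Tnfrsf10b rose by 3.61 and the lymphotoxin receptor Ltbr by 2.61. Tnfrsf11a (RANK) was not well above background in spleen and was at least 2.44-fold higher in tumour. Tnfrsf13c, the BAFF receptor of B cells, fell by 4.56, Tnfrsf26 by 2.95 and Tnfrsf25 (DR3, the receptor for TL1A) by 1.75. The death receptor Fas fell by 0.58, a call that was lost without IL10- replicate 3, spleen replicate 1 or spleen replicate 3. Without spleen replicate 1 or 3, 3 members fell in each case.

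Most cytokine receptors did not differ past the threshold, with 4 rises and 7 falls among 28 measured members. Il1r2, the decoy receptor that binds interleukin-1 without signalling, read 4.43, 3.98 and 3.96 in tumour and 0.99, -2.95 and 0.56 in spleen, lowest on replicate 2, and rose by 4.59 ± 0.82 (SE, adjusted p = 0.00123), or 3.35 without that array. Il18rap, the second chain of the interleukin-18 receptor, rose by 2.21. The interferon-gamma receptor chains moved apart, with a rise of 1.06 for Ifngr1 and a fall of 0.96 for Ifngr2. Receptors that fell were Ifnar2 for type I interferons (1.91), Il6st for the interleukin-6 family (1.85) and Il17ra for interleukin-17 (1.58). Ifnar2 has another probe that did not pass (0.06), and the mean of its probes gave -0.92. The receptor chains for interleukin-10 itself, Il10ra (-0.07) and Il10rb (-0.44), did not pass, though Il10rb was called without spleen replicate 2 (-0.68, adjusted p = 0.0213). The rises numbered 7 without spleen replicate 2. The share called in this list lay below the 49.0% of all features.

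Chemokine and homing receptors moved in both directions, in a list of 27 measured members of which 5 rose and 7 fell. These counts are near or below the 24.3% and 24.7% of all features. The fractalkine receptor Cx3cr1 read -0.99, -0.20 and 0.48 in tumour and -5.86, -3.67 and -4.06 in spleen and rose by 4.29 ± 0.61 (SE, adjusted p = 3.12e-04), and the receptor for Ccl2, Ccr2, by 1.74. Among the falls, S1pr1, which lets T cells leave lymphoid organs, read 0.02, 1.40 and 1.61 against 3.1, 3.92 and 3.45 and fell by 2.47 ± 0.44 (SE, adjusted p = 0.00132). The gut-homing receptor Ccr9 fell by 3.66. Without both arrays that stand apart 7 rose and 4 fell, and Ccr9 lost its call (-2.51).

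The lists of helper T cell programmes held no larger share of called genes than the 49.0% of all features, except the Tfh list. In the Th1 list 7 of 16 measured members rose and none fell, Il18rap among them. Ccl3 and Ccl4, chemokines of activated T cells and macrophages, rose by 4.43 and 4.18. The factor Tbx21 (0.73) and the cytokine Ifng (0.43) did not pass. In the Th17 list 4 of 11 rose and none fell. These were Rora, the leukotriene receptor Ltb4r1 (4.07), Stat3 (0.82) and the cytokine Il17a, which read -4.15, -2.68 and -1.91 in tumour and was not well above background in spleen (at least 2.2-fold). The call of Il17a was lost without IL10- replicate 3, spleen replicate 1 or spleen replicate 3.

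In the Th2 list 3 of 10 rose, Ccr8, Areg and the cytokine Il13. Il13 read -2.65, -1.64 and -2.47 in tumour and -5.31, -5.17 and -5.17 in spleen, where it was not well above background, and was at least 3.48-fold higher. Stat6, which transmits the interleukin-4 signal, fell by 0.54, but this call was lost without any one of 5 of the 6 arrays. In the Tfh list 3 of 9 rose and 5 fell. Besides Icos and Pdcd1 the secreted factor Angptl2 rose (3.74), and the adaptor Sh2d1a (SAP) fell by 2.39 along with Cxcr5, Btla and Slamf6.

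Genes of the T cell receptor complex and its proximal signalling were lower or did not differ past the threshold. Of 25 measured members, 11 fell and none rose, with a median of -0.88. The share called lay below the 49.0% of all features, of which 24.7% fell. Prkcq, the kinase PKC-theta, read 0.53, 1.69 and 1.61 in tumour and 3.81, 4.22 and 4.11 in spleen and fell by 2.77 ± 0.42 (SE, adjusted p = 4.74e-04). Dgka, a kinase that removes diacylglycerol and is high in resting T cells, fell by 2.59. The kinase Txk fell by 2.26 and the adaptor Trat1 by 2.02. The kinases Lck (-0.52) and Zap70 (-0.12) did not pass. Without both arrays that stand apart 7 members fell and the median was -0.57. Of the 9 T cell markers 3 fell (2 without IL10- replicate 1), and their summed signal, in units of the array's 75th percentile, was 334 to 604 in tumour and 593 to 678 in spleen.

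Cell cycle genes were higher in IL10- tumour Treg. Of 34 measured members, 32 rose and none fell, with a median of 1.58, where 24.3% of all features rose. E2f1, a factor that turns on genes of DNA replication, read 1.68, 1.61 and 1.77 in tumour and -0.76, -0.81 and -0.91 in spleen and rose by 2.51 ± 0.13 (SE, adjusted p = 1.02e-06). The gap between the groups was far wider than the spread within either. Ccne2, a cyclin of entry into S phase, rose by 2.71 ± 0.17 (SE, adjusted p = 2.87e-06), and the replication licensing genes Cdc6 and Mcm5 rose by 2.15 and 1.58. Cdt1 (0.48) and Aurkb (0.98) did not pass. Spleen replicate 2 was low for this list too. The median was 1.32 without it and 1.08 without both arrays that stand apart, with 31 and 30 rises. With slide as a fixed block 4 members rose. Markers of macrophages and fibroblasts (14 of 18 and 12 of 14) and Mela rose on the same arrays. The part of such cells in the rises of this list, the glycolysis list and the cholesterol list was not tested.

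Glycolysis and hypoxia genes were higher as a group. Low oxygen stabilises the factor HIF-1, which binds the core motif ACGTG or GCGTG (hypoxia response element) and raises glycolytic enzymes and genes such as Bnip3. Of 29 measured members, 26 rose and 1 fell, with a median of 2.08, where 24.3% of all features rose and 24.7% fell. Bnip3, which takes part in the removal of mitochondria, read 4.85, 4.51 and 4.64 in tumour and 0.18, 0.00 and 0.32 in spleen and rose by 4.50 ± 0.16 (SE, adjusted p = 2.21e-07). Pgk1, a glycolytic kinase, read 6.74, 6.60 and 6.68 against 4.26, 4.37 and 4.15 and rose by 2.41 ± 0.12 (SE, adjusted p = 9.57e-07). Ero1a, an oxidase of protein folding in the endoplasmic reticulum, rose by 3.53 ± 0.19 (SE, adjusted p = 1.42e-06), and Tpi1, the triose phosphate isomerase, rose by 3.17 ± 0.18 (SE, adjusted p = 1.76e-06). The groups lay apart for all of these. Pdk1, the kinase that holds back pyruvate dehydrogenase and is itself a hypoxia gene, fell by 1.08 ± 0.30 (SE, adjusted p = 0.0132). The glucose transporter Slc2a3 (0.00) and the hexokinase Hk1 (0.32) did not pass. For Hk1 this holds for the brightest probe alone, since its other probes, at 1.07, 1.14, 1.05 and 2.76, were each called higher. Pdk1 fell by less without spleen replicate 2 (-0.67). Without both arrays that stand apart, 25 rose and 1 fell, and with slide as a fixed block 11 rose.

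The 250 bases before the start of the 4 genes that changed with the smallest p in this list are shown because they differ in that motif. The sequences are those of RefSeq on GRCm38.p6, 5′ to 3′ on the gene's strand, with ACGTG and GCGTG and their reverse complements CACGT and CACGC in capitals. The windows are Bnip3 (chr7:138909507-138909756, minus strand), Pgk1 (chrX:106186850-106187099, plus strand), Ero1a (chr14:45318573-45318822, minus strand) and Tpi1 (chr6:124814159-124814408, minus strand).
Bnip3: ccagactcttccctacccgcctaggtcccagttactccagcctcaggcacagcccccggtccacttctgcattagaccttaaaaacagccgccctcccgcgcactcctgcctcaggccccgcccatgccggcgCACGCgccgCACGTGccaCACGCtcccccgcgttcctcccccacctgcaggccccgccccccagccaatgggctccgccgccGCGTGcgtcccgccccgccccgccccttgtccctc
Pgk1: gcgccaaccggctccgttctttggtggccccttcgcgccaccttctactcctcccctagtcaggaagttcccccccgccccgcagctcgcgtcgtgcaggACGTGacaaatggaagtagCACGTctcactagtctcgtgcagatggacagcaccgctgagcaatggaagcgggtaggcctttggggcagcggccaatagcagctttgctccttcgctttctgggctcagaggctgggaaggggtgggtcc
Ero1a: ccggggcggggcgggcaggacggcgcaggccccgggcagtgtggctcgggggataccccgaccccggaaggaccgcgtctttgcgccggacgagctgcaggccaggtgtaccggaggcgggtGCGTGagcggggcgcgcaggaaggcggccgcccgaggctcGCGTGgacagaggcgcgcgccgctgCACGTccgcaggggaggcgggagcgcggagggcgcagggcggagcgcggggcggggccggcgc
Tpi1: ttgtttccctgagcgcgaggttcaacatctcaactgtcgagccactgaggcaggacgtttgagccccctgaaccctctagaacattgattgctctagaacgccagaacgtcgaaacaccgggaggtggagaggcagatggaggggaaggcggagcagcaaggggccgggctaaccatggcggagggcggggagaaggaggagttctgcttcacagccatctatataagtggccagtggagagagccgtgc

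Bnip3 holds 5 marked stretches, Ero1a 3 and Pgk1 2, whereas Tpi1 holds none in this window although its difference was larger than that of Pgk1. ACGTG and CACGT overlap where the letters read CACGTG. Of the 29 measured members 27 matched a promoter. ACGTG was found on either strand in 17 of the 27, among them 17 of the 25 that rose, and in 18.5% of 27025 genes with a window of the same length. GCGTG was found in 17 of the 27, among them 15 of the 25 that rose, and in 30.9% of those genes. A match is a description of the letters and not of binding.

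Cholesterol synthesis genes were higher, though less so without the arrays that stand apart. Of 22 measured members, 19 rose and none fell, with a median of 1.25, where 24.3% of all features rose. Stard4, which carries sterols, read 1.39, 0.98 and 0.78 in tumour and -0.81, -0.76 and -0.64 in spleen and rose by 1.79 ± 0.19 (SE, adjusted p = 5.90e-05). The groups did not overlap. The synthesis enzyme Hsd17b7 rose by 1.61 and the sterol sensor Insig1 by 1.52. Srebf2, the factor that drives these genes, differed by -0.32 ± 0.13 (SE, adjusted p = 0.0671) on the brightest probe and did not pass. Its probes disagree, since those at 2.52 and 1.39 were called higher. Without both arrays that stand apart 12 members rose and the median was 1.02. Hmgcs1, an early enzyme of the pathway, is shown because its 250 bases before the start hold the sterol response letters TCACNCCAC, which 1.22% of genes hold, beside ATTGG, the CCAAT box on the other strand. Its window is chr13:119690101-119690350, plus strand, from RefSeq on GRCm38.p6, with both motifs in capitals.
Hmgcs1: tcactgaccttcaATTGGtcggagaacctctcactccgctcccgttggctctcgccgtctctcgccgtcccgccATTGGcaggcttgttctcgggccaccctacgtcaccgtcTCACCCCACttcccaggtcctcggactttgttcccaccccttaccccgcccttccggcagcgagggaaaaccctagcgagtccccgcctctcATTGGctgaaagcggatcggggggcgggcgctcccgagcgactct

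Hmgcs1 read 3.46, 2.97 and 2.60 in tumour and 1.43, 1.66 and 1.97 in spleen, without overlap, and was named here for its promoter after its values were seen. It was the only 1 of the 15 members with a matched promoter that holds TCACNCCAC, while ATTGG was found in all 15 and in 37.5% of genes. Since only 15 of the 22 measured members had a matched promoter, these counts are not read as a check of the list.

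Oxidative phosphorylation genes mostly did not differ past the threshold. Of 26 measured members, 5 rose and 1 fell, a share called below the 49.0% of all features. The median of 0.13 turned to -0.33 on the scale of the array median, where 0 rose. The rises were small, such as 0.75 for the complex I subunit Ndufv1, 0.69 for cytochrome c (Cycs), 0.66 for the complex IV subunit Cox5a and 0.62 for Ndufb8. Sdha, of complex II, fell by 0.48, a call lost without any one of 4 arrays (IL10- replicates 1 and 3, spleen replicates 2 and 3). Ndufb8 lost its call without both arrays that stand apart (0.42).

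**Figure D4:**
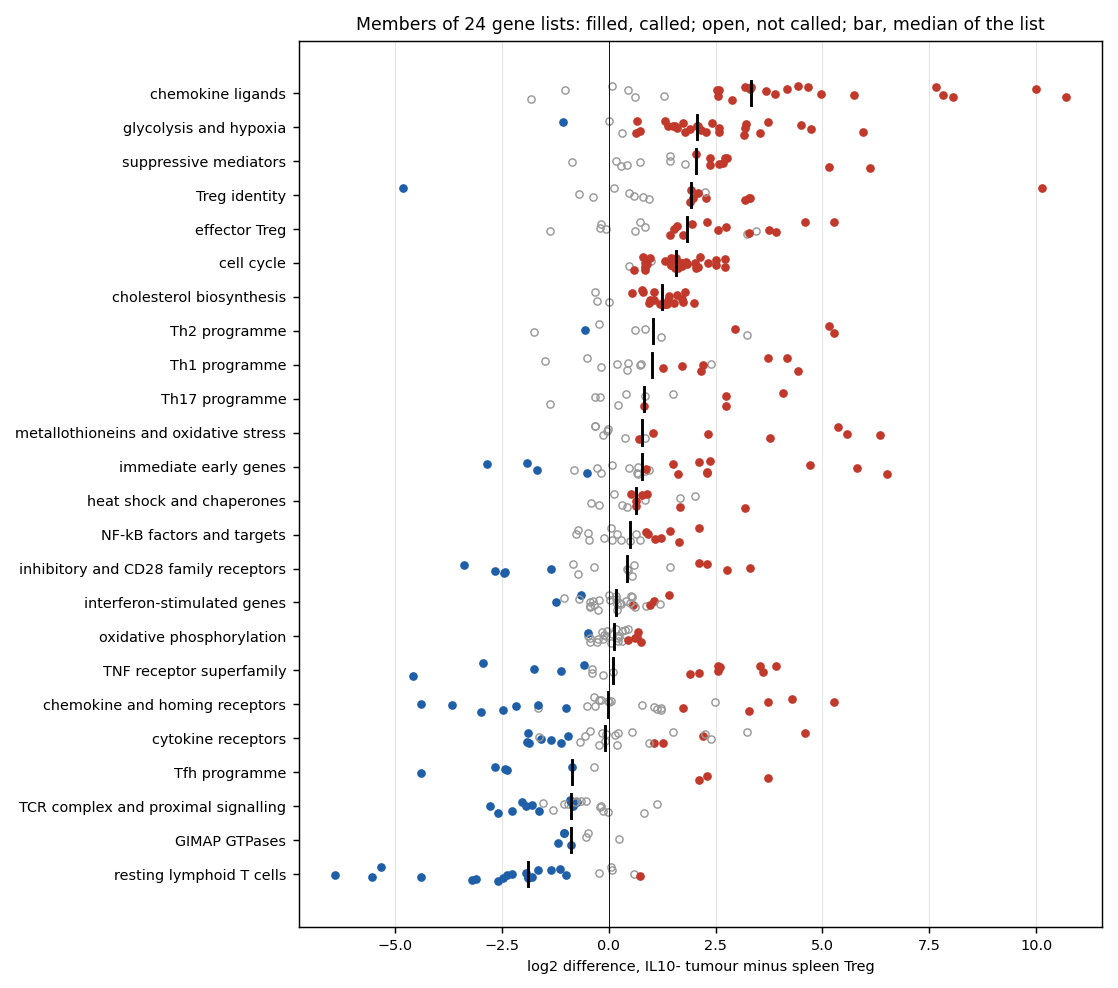
Differences between IL10- tumour and spleen Treg (log2) on the horizontal axis for the measured members of 24 gene lists, 1 point per gene. Filled points are called (red higher, blue lower), open points are not, and the bar is the median of the list. Cell cycle, glycolysis and hypoxia and chemokine ligand genes lie mostly above 0, with medians of 1.58, 2.08 and 3.33, and resting lymphoid genes below it (-1.89).

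Immediate early genes, the first to be transcribed after a stimulus and also known to respond to tissue digestion, moved in both directions. Of 24 measured members, 10 rose and 4 fell, where 24.3% of all features rose and 24.7% fell. Fosl1 and Ier3 were not well above background in spleen and were at least 23.3-fold and 65.4-fold higher in tumour. The stress factor Atf3 read 2.14, 1.77 and 1.98 in tumour and -2.26, -3.16 and -2.79 in spleen and rose by 4.70 ± 0.47 (SE, adjusted p = 4.23e-05). Klf4 rose by 2.37. Fos (0.08), Egr1 (-0.18) and Nr4a1 (0.70) did not pass. Egr2, a factor induced by T cell receptor signals, read 0.44, 0.17 and -0.03 against 2.51, 1.34 and 2.45 and fell by 1.91 ± 0.30 (SE, adjusted p = 6.16e-04). Egr3 was not well above background in tumour and was at least 4.9-fold lower, and Btg2, which restrains the cell cycle, fell by 1.68. Ier5 fell by 0.50, a call lost without any one of 4 arrays (IL10- replicates 1 and 3, spleen replicates 1 and 3). The part of tissue handling in these values was not tested.

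Heat shock and chaperone genes gave 7 rises among 15 measured members and no fall, a share called near the 49.0% of all features. Those with the smallest p were chaperones of the endoplasmic reticulum and mitochondria, Hsp90b1 (0.90), Hspa5 (0.79) and Hspd1 (0.65), with the co-chaperone Bag3 (1.66). Hspa1a, the inducible HSP70, read 4.65, 7.90 and 7.77 in tumour and 5.0, 5.39 and 3.84 in spleen. The groups overlapped, and the difference of 2.03 ± 0.98 (SE, adjusted p = 0.112) did not pass. Without IL10- replicate 1 it was 3.09 and was called (adjusted p = 0.016). On the scale of the array median 2 members of the list rose.

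NF-kB factors and targets gave 7 rises among 19 measured members and no fall, a share called below that of all features, with a median of 0.49. Nfkb2, a subunit of the alternative pathway, read 4.83, 5.4 and 5.25 in tumour and 3.80, 3.15 and 3.55 in spleen and rose by 1.66 ± 0.24 (SE, adjusted p = 3.38e-04). The regulators Nfkbiz, Tnfaip3 and Nfkbib rose by 2.12, 1.44 and 0.87. The subunits Rela (0.29) and Nfkb1 (-0.47) did not pass, although another Nfkb1 probe was called lower (-0.96). Without IL10- replicate 1 the median was 0.85, and without IL10- replicate 2 it was 0.30. On the scale of the array median 2 rose and 1 fell.

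Interferon-stimulated genes mostly did not pass, with 4 rises and 2 falls among 30 measured members and a median of 0.18. The share called was below the 49.0% of all features. Isg20, an exonuclease, read 4.88, 5.63 and 5.35 in tumour and 4.15, 3.39 and 4.07 in spleen and rose by 1.42 ± 0.28 (SE, adjusted p = 0.00229). Oasl2, Bst2 and Gbp2 rose by 0.97, 1.06 and 0.57, the call of Bst2 being lost without IL10- replicate 2. Irf9, a subunit of the factor that transmits the type I interferon signal, fell by 1.22 ± 0.28 (SE, adjusted p = 0.00537), and the RNA sensor Ifih1 fell by 0.64, although the mean of its probes gave 0.68. IL10- replicate 1 was low for this list, with a median of 0.45 without it, and the median turned to -0.03 without IL10- replicate 2 and to -0.27 on the scale of the array median.

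Metallothioneins, small metal-binding proteins that rise with zinc and glucocorticoids, were higher in IL10- tumour Treg. Mt2 read 8.29, 6.66 and 7.48 in tumour and 1.46, 0.82 and 1.15 in spleen and rose by 6.34 ± 0.40 (SE, adjusted p = 2.88e-06), and Mt1 rose by 5.57 ± 0.41 (SE, adjusted p = 7.71e-06). Mt3 was not well above background in spleen and was at least 18.5-fold higher. Srxn1, which repairs peroxiredoxins, rose by 3.77. In all 7 of 14 measured members of this list rose and none fell, a share called near the 49.0% of all features. Gclm (-0.02) and Gpx1 (-0.14) did not pass.

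GIMAP GTPases, which support lymphocyte survival, were lower or did not pass. Of 7 measured members 4 fell, Gimap9 (1.05), Gimap6 (1.19), Gimap7 (0.89) and Gimap1 (1.05), where 24.7% of all features fell. The count was 1 without IL10- replicate 1, 2 without spleen replicate 2 and 0 without both. It was 2 without spleen replicate 1, without spleen replicate 3 or without IL10- replicate 3.

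Chemokine ligands were the programme list with the highest median, 3.33. Of 25 measured members 19 rose and none fell, where 24.3% of all features rose. Of the 25, 11 were not well above background on any spleen array. These 11 passed the filter only through tumour arrays, so a difference was largely set by the filter. The count and the median of this list are not independent of that filter. Ccl12, a mouse chemokine for monocytes, read 1.92, 1.54 and 1.82 in tumour and -6.17, -5.91 and -6.09 in spleen and was at least 56.1-fold higher. Cxcl14 was at least 11-fold higher. Ccl5, which T cells themselves make, read 5.79, 6.49 and 6.05 against 5.54, 6.45 and 4.94 with overlap. Its difference of 0.47 ± 0.39 (SE, adjusted p = 0.341) did not pass. Ccl2, Ccl7 and Ccl12 are known from macrophages and fibroblasts, and markers of those cells moved with them.

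The gate on CD45, CD11b-low, CD3 and CD4 would leave out macrophages and fibroblasts, yet markers of both were bright on the tumour arrays. Of 18 measured macrophage and monocyte markers 14 rose and none fell, with a median of 2.16, where 24.3% of all features rose. Of the 18, 2 were below background on all spleen arrays and passed the filter only through tumour arrays. Apoe, a lipid carrier of macrophages, read 7.31, 7.70 and 8.08 in tumour and 4.95, 4.26 and 3.86 in spleen and rose by 3.34 ± 0.39 (SE, adjusted p = 9.70e-05). The summed signal of the macrophage list was 499 to 742 in IL10- tumour Treg and 121 to 199.7 in spleen Treg, in units of the array's 75th percentile. Of 14 measured fibroblast markers 12 rose and none fell, against the same share of all features. The median was 5.70, or 4.91 with the 4 that were below background in spleen set at their bounds. Those 4 too passed the filter only through tumour arrays. Sparc, a matrix protein, read 6.26, 4.80 and 4.83 against -0.23, 0.79 and -2.91 and rose by 6.08 ± 0.82 (SE, adjusted p = 2.45e-04). Thy1, which T cells share with fibroblasts, did not pass (-0.03), and the list summed to 111 to 191, in spleen and 307 to 487 in tumour. Lists of chemokine ligands and immediate early genes hold genes that such cells express, and the part of those cells in each rise was not tested.

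Markers of B cells went the other way. Each of the 14 measured B cell markers fell, where 24.7% of all features fell. The median was -4.87 (-4.81 with those below background in tumour at their bounds). Cd79b, a chain of the B cell receptor, read 1.23, 2.0 and 1.69 in tumour and 5.84, 5.0 and 4.93 in spleen and fell by 3.62 ± 0.31 (SE, adjusted p = 1.86e-05). The summed signal was 3.11 to 4.61 in tumour and 58.5 to 110.5 in spleen. The gate on CD3 and CD4 would remove such cells. Of 7 plasma cell markers 5 fell, among them Jchain and the co-activator Pou2af1 (6.12), and 2 rose. Xbp1, a factor of the unfolded protein response, was among these (0.47), whose groups overlapped, and no marker rose without IL10- replicate 1, spleen replicate 2 or spleen replicate 3. Of 9 markers of erythroid cells and platelets 5 fell and none rose, a share called near the 49.0% of all features. The globin Hba-a1 read 2.91, 1.55 and 4.06 in tumour and 9.26, 9.57 and 8.27 in spleen and fell by 6.20 ± 1.03 (SE, adjusted p = 8.45e-04). The platelet chemokine Pf4 did not pass (3.09), but without spleen replicate 2 it did (4.99, adjusted p = 3.23e-05).

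For the other cell types fewer markers were called, in each list a share below the 49.0% of all features. Of 11 markers of CD8 T and NK cells 1 rose and 2 fell, and Cd8b1, a chain of CD8, fell by 1.05, a call lost without both arrays that stand apart (-0.90). Of 11 dendritic cell markers 2 rose and 2 fell, with Cd74, the MHC class II chaperone, at -0.58 (not called) and Cst3 rising by 0.92. Without spleen replicate 3, 4 of these fell. Of 6 neutrophil markers only Ltf, the iron-binding lactoferrin, rose. It read 2.07, 3.01 and 2.72 in tumour and was at least 101-fold higher, while S100a9 did not pass (-0.86). Of 8 endothelial markers 1 rose and 1 fell, with a fall of 1.66 for Pecam1 (CD31). No endothelial marker rose once IL10- replicate 1 or 3 or spleen replicate 3 was left out. Of 11 epithelial markers 5 could be tested, and Epcam did not pass (0.08) and turned to -0.66 without spleen replicate 2. The summed signal of the epithelial list was 131 to 239 in tumour and 0.529 to 2.12 in spleen. Nearly all of the tumour sum is Mela, so the sum does not speak for the other markers.

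**Figure D5:**
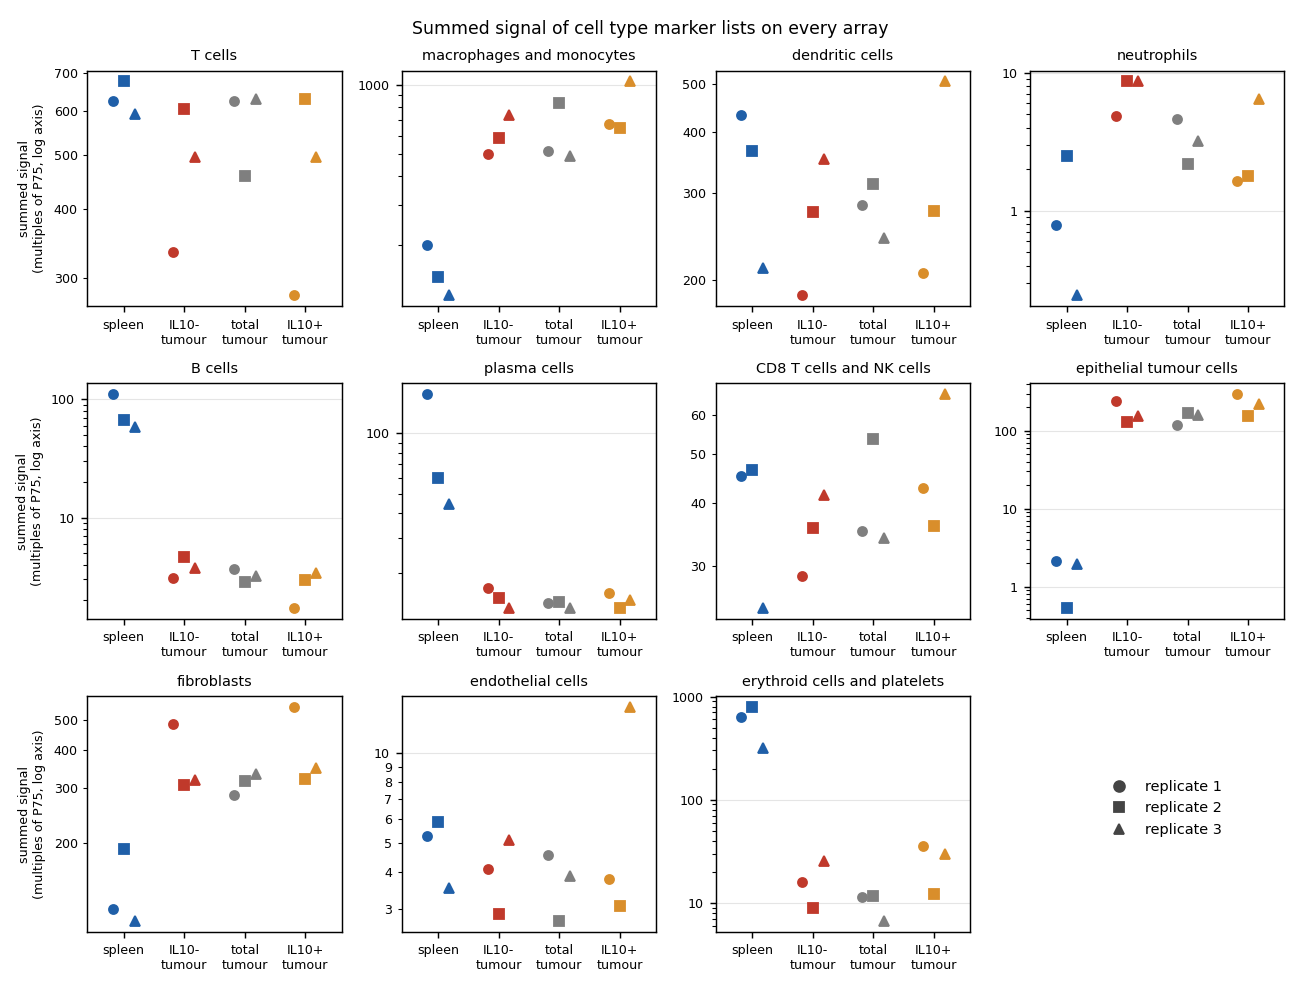
Summed signal of the measured markers of each cell type (multiples of the array's 75th percentile, log axis) on each of the 12 arrays by group, with symbols for the replicate number. Macrophage and fibroblast sums are higher on all 3 IL10- than on all 3 spleen arrays, B cell, plasma cell and erythroid sums are lower, and T cell sums are 334 to 604 and 593 to 678.

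The differences from spleen were set beside those of total and IL10+ tumour Treg, all against the same 3 spleen arrays. Gzmb was 6.10 above spleen in IL10-, 7.10 in total and 7.02 in IL10+ tumour Treg. Bach2 was -5.32, -5.54 and -6.08, Bnip3 4.50, 3.93 and 4.53, and Mt2 6.34, 6.26 and 6.76. Il10 was 0.75, 5.99 and 5.38. Ccr7 was 0.07, -1.34 and -2.11. Lag3 was 1.43, 3.42 and 4.43. Because the spleen arrays enter all of these values, likeness among them is not an independent result. A single total tumour array lay on the slide of the spleen arrays, and against them it gives a difference within 1 slide. The list medians of that array minus spleen were 1.52 for cell cycle, 1.75 for glycolysis and hypoxia, -1.93 for resting lymphoid and 2.15 for effector Treg genes. They were 3.50 for chemokine ligands, 5.64 for fibroblast and -6.10 for B cell markers, where the IL10- arrays gave 3.33, 5.70 and -4.87. With 1 array these values have no replicate, and they concern total rather than IL10- Treg.

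The difference between IL10- and total tumour Treg was tested directly. Of 15517 features 8 passed (0.0516%), 5 higher and 3 lower in IL10- cells, with 2409 at an unadjusted p under 0.05. No overlap was seen for 27.7% of features. Foxp3 and Gdpd3 had the largest differences, and they followed the strain. Calca, which encodes the neuropeptide CGRP, read -1.62, -0.98 and -1.09 in IL10- and 2.37, 1.71 and 2.10 in total tumour Treg, a difference of -3.29 ± 0.41 (SE, adjusted p = 0.043). In IL10+ Treg it read 0.13, 1.48 and 1.89, and it was not well above background in spleen. Il10, which the gate should lower, read 5.74, 5.02 and 5.14 in total tumour Treg, a difference of -5.25 ± 1.01 (SE, adjusted p = 0.0638). Ccr7 differed by 1.40 ± 0.37 (SE, adjusted p = 0.131) and Lag3 by -1.99 ± 0.70 (SE, adjusted p = 0.222). Malt1, which links the T cell receptor to NF-kB, differed by -1.34 ± 0.17 (SE, adjusted p = 0.043), and Mex3d, Dcakd and Marcksl1 were higher by 1.26, 1.26 and 1.08. Leaving out any 1 of the 6 arrays gave 2 to 4 calls, and those of Calca, Malt1, Mex3d, Dcakd and Marcksl1 were lost each time.

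Between IL10+ and IL10- tumour Treg of the same strain 8 features passed (0.0516%), with 718 at an unadjusted p under 0.05 and no overlap for 7.40%. Btla read -3.32, -2.90 and -2.93 in IL10+ Treg, a difference of -1.85 ± 0.16 (SE, adjusted p = 0.00813) from IL10- Treg. Tnfrsf25 differed by -2.04 ± 0.21 (SE, adjusted p = 0.0113), and both had already fallen from spleen to IL10- tumour Treg. The hair keratins Krt86 and Krt87, near-identical relatives that probes may not tell apart, read 1.75, 1.85 and 1.25 and 1.38, 1.49 and 0.81 in IL10- tumour Treg and rose from spleen by 3.54 and 3.78. Both were lower in IL10+ than in IL10- Treg (-2.41 and -2.42). Prm2, a protamine, read -1.52, -0.85 and -1.92 and differed by -3.82 in IL10+ Treg, and Csta2, a stefin, read -1.95, -2.37 and -2.21 and differed by 2.40. Leaving out any 1 of these 6 arrays gave 0 to 6 calls. Without IL10- replicate 2 there were 0 calls, so those of Btla, Tnfrsf25, Prm2 and Csta2 were lost too. Without IL10+ replicate 1 only 1 of the 8 calls was kept. The call of Krt87 was lost without any of 5 arrays (all but IL10- replicate 3) and that of Krt86 without IL10- replicate 2 or IL10+ replicate 1. Same-numbered arrays were not paired in this test, and a replicate block gave 3 calls.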

How the data were processed

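RNA of sorted Treg was measured on 12 one-colour Agilent arrays in 4 groups of 3, and 6 of them form the comparison here. Per the file headers, the authors' scanner files came from Agilent Feature Extraction 9.5.3.1, and the processed signal is an intensity with background subtracted and trends removed within each array, not adjusted between arrays. The deposited value table holds log10 values (each column's median is 1.33), and its further normalization stays unknown here, so it served as an alternative only.

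The log2 of each processed signal minus the array's 75th percentile was computed here. Control spots were dropped, spots marked as outliers were left out (34 of the features tested had one), and the brightest of a gene's probes over the 12 arrays was kept. Features well above background on at least 3 arrays were tested (15517, of which 13704 have a gene name). A member that passes only through the group where it is bright had to differ. limma 3.58.1 (R 4.3.3) fitted the 4 group means to all 12 arrays, with two-sided tests and Benjamini-Hochberg adjustment, and called features at an adjusted p under 0.05. A gene not well above background on any array of a group is given as at least N-fold, against the lower limit of well-measured signal. The number of arrays limits the precision. Data were simulated for this comparison over 15517 features, with 67, 67 and 66 genes changed by 1, 2 and 4 on the log2 scale. Of these, 38.8%, 58.2% and 92.4% were recovered, with 12 false calls. No other feature was changed in the simulation, whereas 49.0% of features were called in the data. The adjusted p depends on that share, so the recovered shares do not carry over to the data.

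The named genes are those behind the sorts, the 15 largest rises and 15 largest falls, the 4 members of each list with the smallest p in each direction and the 2 brightest of each cell type list, with up to 5 rises and 5 falls in each comparison of tumour Treg groups. The largest rises and falls were taken among called genes with a gene name whose groups did not overlap. Predicted genes, clones and immunoglobulin and T cell receptor segments were left out of these rankings. The text omits a few genes chosen in this way. Others named did not pass or were chosen after their values were seen. The members and lists were chosen with earlier results of these data known. Alternatives varied background, scaling, filter, samples in the fit, slide, replicate block, variance model, probe choice, source of values and single arrays. Promoter and gene names are from RefSeq (GRCm38.p6), and array coordinates are mm8 per the file headers. Figures were drawn with matplotlib 3.10.9.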

Additional observations from a re-analysis of the deposited data

Results flagged for a closer look

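The tests of difference between tumour Treg groups gave 16 features past an adjusted p of 0.05 (limma), listed as differences on the log2 scale. Between IL10- and total tumour Treg, Foxp3 differed by 10.42 and Gdpd3 by -8.02, and both follow the reporter strain. Calca differed by -3.29 and Malt1 by -1.34. The RNA-binding gene Mex3d differed by 1.26, Dcakd by 1.26, Marcksl1 by 1.08 and the predicted locus LOC668978 by 1.34.

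Between IL10+ and IL10- tumour Treg, Prm2 differed by -3.82, Krt87 by -2.42 and Krt86 by -2.41. The receptors Tnfrsf25, Btla and Il18r1 (for interleukin-18) differed by -2.04, -1.85 and -1.84. The muscle actinin Actn2 differed by -1.52 and Csta2 by 2.40. Actn2, Il18r1 and LOC668978 are named here after their values were seen.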

How the results depend on the processing

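Calls of IL10- tumour against spleen Treg numbered 7608, and 6417 to 6931 without single arrays. Background correction by normexp gave 2244, slide as a fixed block 1202, slide as a random block 6510 and the replicate block 7495. Same-numbered IL10- and spleen arrays did not deviate together (correlations of 0.012, -0.056 and 0.034 for the 3 numbers). Same-numbered IL10- and IL10+ arrays were not compared in this way. Their Treg identity medians were 2.81, 4.21 and 4.09 in IL10- and 2.93, 4.19 and 3.85 in IL10+ Treg, with replicate 1 lowest in both. With the array median as the scale, 31.9% of calls were rises, against 49.6%. The 8 calls between IL10- and total tumour Treg became 3 (normexp), 16 (quantile), 2 (no filter), 94 (filter on all 3 arrays of a group), 4 (those 2 groups alone), 2 (replicate block, and slide as a random block), 0 (slide as a fixed block, with 1449 at an unadjusted p under 0.05), 58 (trend and robust), 25 (mean of probes) and 14 (value table), and 2 to 4 without single arrays. The 8 between IL10+ and IL10- became 3 (normexp, and replicate block), 1 (array median), 2 (no filter) and 0 (2 groups alone, and slide as a fixed block), and 0 to 6 without single arrays. The causes were not tested.

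Of 185 named results, 72 kept direction and call with slide as a fixed block, 109 lost the call and 4 reversed. Under it the medians turned to -0.59 (inhibitory and CD28 family), -0.28 (Th1), -0.025 (Th2), 0.044 (Tfh), -0.12 (immediate early), -0.068 (heat shock) and -0.22 (NF-kB), and Il10, Ctss, S100a9 and Epcam turned to -1.25, -0.19, 3.46 and -0.99. With the array median, the inhibitory median turned to -0.018, oxidative phosphorylation to -0.33, Ctss to -0.093 and Epcam to -0.38. Oxidative phosphorylation also turned to -0.027 (normexp) and -0.046 (value table). The mean of probes turned Ly6c1 to -0.49, Ifih1 to 0.68 and Thy1 to 0.071. Without both arrays that stand apart, Il10, Epcam and Thy1 turned to -0.50, -0.40 and 0.41. Over the fits that each left out 1 array, Il10 ranged from -0.72 to 1.51, Cd5 from -0.42 to 0.043, S100a9 from -2.13 to 0.57, Epcam from -0.66 to 0.52, Thy1 from -0.17 to 0.20 and Plvap from -0.085 to 1.37. None of these 6 genes was called over all 6 arrays.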

Other observations

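Gene families grouped by name, chosen after their values were seen, are given beside the 24.3% of all features that rose and the 24.7% that fell between spleen and IL10- tumour Treg. Of 36 measured immunoglobulin segments 34 fell and 1 rose, with a median difference of -7.46 on the log2 scale. Of 10 T cell receptor segments 7 fell and none rose (median -1.45). Of 31 collagens 19 rose and 3 fell (median 2.56), and of 12 matrix metalloproteinases 6 rose and 1 fell (median 1.72). Of 8 granzymes, the proteases of cytotoxic granules, 5 rose and none fell (median 2.78).

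Ribosomal protein genes gave 55 falls and 2 rises among 79 and a median of -0.65. Of 37 proteasome subunits 16 rose and none fell (median 0.32), fewer called than the 49.0% of all features. Among 228 solute carriers 69 rose and 51 fell, near the shares of all features. Probes of 1 gene did not always give 1 answer. Of 297 further probes of 224 genes that were named or on a list, 10 were called in the direction opposite to the probe used and 121 were not called.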
